A study of Mus musculus with 4 samples.

Results

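Photoreceptor precursor genes are described here in the mouse retina at E13.5 (E, embryonic day). They are 10 genes fixed by name: the transcription factor genes Crx, Otx2, Prdm1 and Nrl, and the photoreceptor protein genes Gngt2, Rbp3, Gnb3, Pde6h, Opn1sw and Rcvrn. All 10 were among the 25239 gene IDs of the tables, each on 1 row, and their values were read per library. RNA sequencing was done on dissected retinae in 4 libraries, 2 of genotype control and 2 of genotype Isl1cKO, and the series asked how the transcriptome changes when Isl1 is lost. Isl1 encodes a LIM-homeodomain transcription factor of developing retinal neurons, and cKO stands for a conditional knockout. The Cre driver, the alleles carried by the controls, the strain and the number of embryos per library are not given in the sources used here, so nothing can be said of which retinal cells were meant to lose the gene. Nothing in the labels says that the libraries of a group came from separate litters, so p-values measure the spread between these libraries.

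Photoreceptor precursors are cells that have left the cell cycle in the retinal neuroblast layer and have begun to turn on photoreceptor genes. Otx2 starts this program and switches on Crx, Prdm1 (also called Blimp1) holds precursors to the photoreceptor fate and away from the bipolar fate, and Nrl directs precursors to become rods. In the mouse, cones are among the early-born retinal neurons and most rods are born later, so early precursor genes include proteins of the cone cascade. In that cascade an opsin activates transducin, transducin releases the catalytic cGMP phosphodiesterase from its inhibitory subunit, and recoverin links calcium to opsin shutoff.

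Crx and Otx2 proteins bind a homeodomain site with the core TAATCC, and the promoters of the members were read for it. RefSeq promoter windows (GRCm38.p6) were matched by symbol for 7 of the 10 members, in 10 windows, and the 250 bases before each RefSeq start were searched. Gngt2, Gnb3 and Rcvrn had no entry. The Crx and Rbp3 windows and 1 of the 4 Otx2 windows (number 3) hold the core, and they are shown because they belong to a factor, a protein gene with a low level in the libraries labelled Isl1cKO, and the factor whose level differed least. Capitals mark TAATCC or its reverse complement GGATTA.
Crx, chr7:15879956-15880205, minus strand: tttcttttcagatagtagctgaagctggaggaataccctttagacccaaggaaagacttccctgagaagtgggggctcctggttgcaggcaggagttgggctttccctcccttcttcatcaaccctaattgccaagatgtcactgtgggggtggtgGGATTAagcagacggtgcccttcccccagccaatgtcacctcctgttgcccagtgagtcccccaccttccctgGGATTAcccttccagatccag
Rbp3, chr14:33953753-33954002, plus strand: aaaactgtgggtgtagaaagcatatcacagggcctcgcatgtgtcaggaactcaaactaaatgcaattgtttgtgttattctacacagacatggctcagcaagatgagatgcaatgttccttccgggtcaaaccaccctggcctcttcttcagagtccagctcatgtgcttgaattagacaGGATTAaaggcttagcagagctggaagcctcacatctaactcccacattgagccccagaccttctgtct
Otx2 window 3, chr14:48665110-48665359, minus strand: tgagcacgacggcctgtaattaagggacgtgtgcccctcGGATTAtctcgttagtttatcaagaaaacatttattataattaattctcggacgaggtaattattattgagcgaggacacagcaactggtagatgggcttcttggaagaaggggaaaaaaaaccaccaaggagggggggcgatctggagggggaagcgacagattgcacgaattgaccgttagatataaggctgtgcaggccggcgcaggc
The cores begin 94 and 21 bases before the start in Crx, 69 bases before it in Rbp3 and 211 bases before it in this Otx2 window. On either strand, TAATCC was found in 6.25% of all 32851 promoter windows of this length. The windows of Prdm1, Nrl, Pde6h and Opn1sw and the other 3 of Otx2 did not hold these letters.

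Nuclear receptors such as the retinoid X, thyroid hormone and ROR receptors bind AGGTCA half-sites, and TGCTGA is the half-site of the Maf family to which Nrl belongs. Among the members' windows AGGTCA was found only in Opn1sw, the gene of the short-wavelength cone opsin, shown for that reason with both half-sites in capitals.
Opn1sw, chr6:29380514-29380763, minus strand: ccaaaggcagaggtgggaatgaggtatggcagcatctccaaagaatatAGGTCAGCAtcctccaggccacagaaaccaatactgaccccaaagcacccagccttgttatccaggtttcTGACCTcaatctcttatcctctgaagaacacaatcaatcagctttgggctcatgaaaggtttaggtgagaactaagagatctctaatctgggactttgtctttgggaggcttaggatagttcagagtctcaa
The AGGTCA matches begin 202 and 132 bases before the start, and the first overlaps the TGCTGA match that begins at 199. All windows held AGGTCA in 14.0% and TGCTGA in 16.1% of cases. TGCTGA was also found once in Rbp3 and once in Otx2 window 2. The homeodomain core TAATTA (4.84% of all windows) was found in Otx2 windows 1 and 3, in the latter 3 times. Of the E-box cores, CAGATG (14.4%) was found in Pde6h 3 times, in Nrl and in Otx2 window 4, and CAGCTG (4271 of all windows) in none. These matches describe letters in a window and do not show binding.

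The targeted gene gives the first check of the labels. Isl1 had levels of 242 and 201 TPM (transcripts per 1000000, a level scaled to transcript length and library total) in control and of 321 and 223 TPM in Isl1cKO, replicate 1 first as in every pair below. Its log2 fold change, here always of TPM + 1 and of Isl1cKO against control, was 0.28 (SE 0.21), and limma gave an adjusted p-value of 0.683. It was 0.01 when Isl1cKO replicate 1 was left out and 0.54 when Isl1cKO replicate 2 was. Isl1 was not lower in the libraries labelled Isl1cKO, so each direction below rests on the labels. The tables give no value per exon, and a transcript that keeps most exons after a deletion would still be counted. Aligned sequence, derived from the deposited coverage and FPKM, was 12.6 to 14.3 gigabases per library, lowest in Isl1cKO replicate 2, and 13554 to 13932 genes reached 1 TPM, fewest in the same library.

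Among the photoreceptor protein genes, the libraries labelled Isl1cKO had lower levels of Gngt2, Rbp3, Gnb3 and, under 1 TPM, Opn1sw. Pde6h and Rcvrn had a value in control replicate 2 only. Among the factors, Crx and Prdm1 were also lower in both Isl1cKO libraries than in both controls, while Otx2 and Nrl overlapped. Otx2 was close to its control level, and mean TPM of Crx, Prdm1 and the low Nrl was 72.9%, 70.0% and 69.2% of control. Mean TPM in Isl1cKO was 50.9% of the control mean for Gngt2, 55.5% for Rbp3 and 46.7% for Gnb3, against 92.4% for Otx2. None of these differences passed the test across all genes. Of the 7 members that could be tested, 0 passed limma's adjusted threshold of 0.05, which 0.493% of all 13984 tested genes passed. At an unadjusted p-value under 0.05 there was 1, Gngt2, where 8.92% of tested genes were lower at that level. In bulk tissue, fewer precursor cells and less RNA of a gene per cell cannot be told apart.

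**Figure D1:**
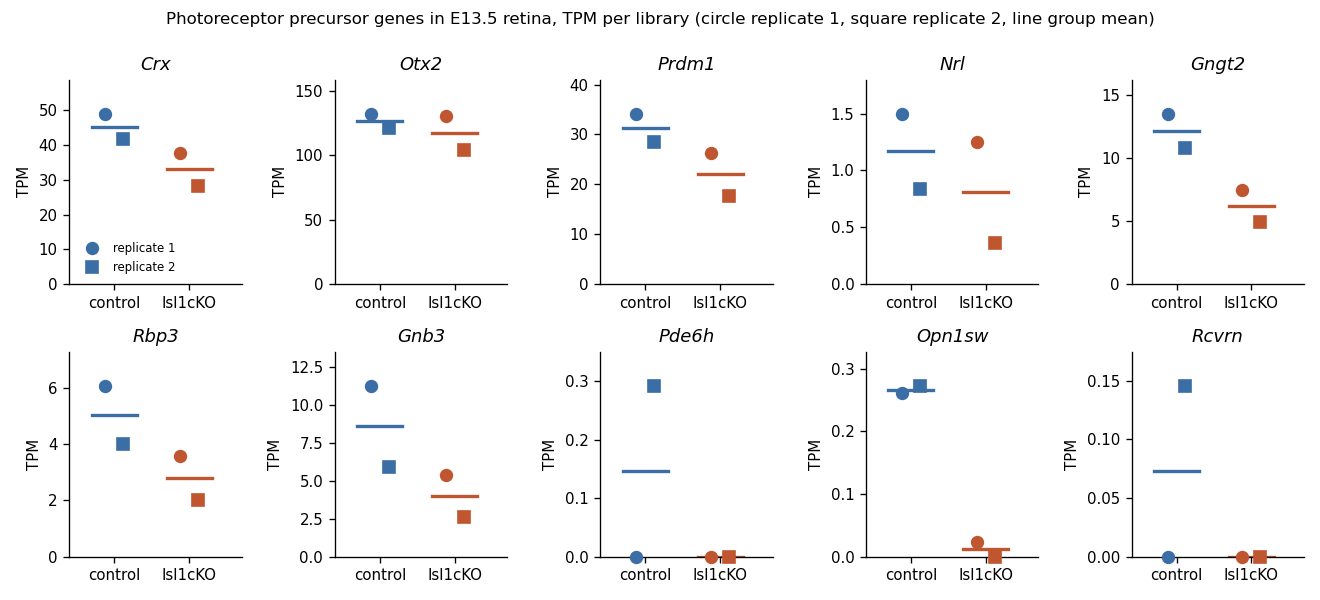
TPM of each of the 10 genes (y axes, linear from 0) in the 2 control libraries and the 2 libraries labelled Isl1cKO (x axis); circles are replicate 1, squares replicate 2, and lines group means. Both Isl1cKO values lie below both control values for Crx, Prdm1, Gngt2, Rbp3, Gnb3 and Opn1sw, and the groups overlap for Otx2, Nrl, Pde6h and Rcvrn.

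Otx2 (chr14:48657677-48667644, minus strand, mm10) is the factor at the head of the program. In control it stood at 132 TPM in replicate 1 and 121 TPM in replicate 2, and in Isl1cKO at 130 and 104 TPM. The groups overlapped, since Isl1cKO replicate 1 lay above control replicate 2. The log2 fold change was -0.12 (SE 0.14, 95% interval -0.48 to 0.24); the adjusted p-value from limma was 0.786. For Otx2 the log2 fold change was 0.04 when Isl1cKO replicate 2 was left out, -0.28 when Isl1cKO replicate 1 was, and -0.06 and -0.18 when control replicate 1 or 2 was. Otx2 is also a factor of the pigment epithelium, whose transcripts were present at low levels in each library (given below).

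Crx (chr7:15865947-15879955, minus strand) encodes the homeodomain factor that activates both cone and rod genes. It stood at 49.1 and 41.6 TPM in control and 37.9 and 28.3 TPM in Isl1cKO. The 4 libraries fell in the order control 1, control 2, Isl1cKO 1, Isl1cKO 2, with no overlap. The log2 fold change was -0.45 (SE 0.17, 95% interval -0.92 to 0.01, adjusted p-value 0.423 in limma), while the replicates differed by 0.23 within control and 0.41 within Isl1cKO on the same scale. The difference between groups was therefore about the size of the gap between the Isl1cKO libraries, and leaving out Isl1cKO replicate 2 brought it to -0.25.

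Prdm1 (chr10:44437174-44458748, minus strand) encodes a zinc finger repressor. It stood at 34.2 and 28.6 TPM in control and 26.4 and 17.6 TPM in Isl1cKO, in the same order of libraries as Crx. The log2 fold change was -0.52 (SE 0.22, 95% interval -1.10 to 0.07) and the adjusted p-value from limma 0.462. Isl1cKO replicate 2 lay 0.56 below replicate 1 on the log2 scale, a gap larger than the difference between the groups. Prdm1 had a log2 fold change of -0.24 when Isl1cKO replicate 2 was left out and of -0.80 when Isl1cKO replicate 1 was.

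Nrl (chr14:55518978-55524981, minus strand), the leucine zipper factor of rods, had the lowest level of the 4 factors. It stood at 1.50 and 0.836 TPM in control and 1.25 and 0.362 TPM in Isl1cKO, from a mean coverage of 1.76 to 7.73 reads per base. In each group replicate 1 was higher, and the groups overlapped. The log2 fold change was -0.29 (SE 0.29, 95% interval -1.08 to 0.50, adjusted p-value 0.761 in limma), and it was 0.07 when Isl1cKO replicate 2 was left out, -0.65 when Isl1cKO replicate 1 was, and -0.07 and -0.51 when control replicate 1 or 2 was.

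Among the protein genes, Gngt2 (chr11:95842295-95845731, plus strand) encodes the gamma subunit of cone transducin. It stood at 13.52 and 10.8 TPM in control and 7.48 and 4.90 TPM in Isl1cKO. Both Isl1cKO libraries lay below both controls, and the group means were 12.2 ± 1.91 and 6.19 ± 1.82 TPM (SD, n = 2 each). Its log2 fold change was -0.89 (SE 0.22, 95% interval -1.46 to -0.31), with an unadjusted p-value of 0.0115 and an adjusted one of 0.268 in limma. Among all tested genes, 1.83% had a lower log2 fold change. The gene shares 182 bases with Abi3 on the opposite strand, which stood between 0.727 and 1.40 TPM and did not follow the order of Gngt2.

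Gnb3 (chr6:124834240-124840275, minus strand) encodes the beta subunit of cone transducin, also used by ON bipolar cells. It stood at 11.3 and 5.92 TPM in control and 5.41 and 2.61 TPM in Isl1cKO. The groups did not overlap, but control replicate 2 and Isl1cKO replicate 1 were nearly level. The log2 fold change was -0.94 (SE 0.40, 95% interval -2.00 to 0.13, adjusted p-value 0.464 in limma), against gaps between replicates of 0.82 in control and 0.83 in Isl1cKO. Leaving out control replicate 1 or Isl1cKO replicate 2 brought it to -0.52, and leaving out either of the others to -1.35. The nearby genes Cdca3 (164 to 166 TPM) and P3h3 (38.3 to 44.2 TPM), which do not overlap it, did not show this order. Usp5, also nearby without overlap and on the same strand, did show it, with a smaller spread (157 and 147 TPM in control, 140 and 133 TPM in Isl1cKO).

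Rbp3 (chr14:33954003-33964219, plus strand) encodes the interphotoreceptor retinoid-binding protein, which carries retinoids between photoreceptors and pigment epithelium. It stood at 6.05 and 3.99 TPM in control and 3.57 and 2.00 TPM in Isl1cKO. The libraries had again the order seen for Crx, with the inner pair close together. The log2 fold change was -0.68 (SE 0.27, 95% interval -1.41 to 0.05, adjusted p-value 0.442 in limma), and gaps between replicates were 0.50 in control and 0.61 in Isl1cKO. Leaving out Isl1cKO replicate 2 brought the value to -0.38, and leaving out control replicate 1 to -0.43. Its promoter window, shown above, holds 1 TAATCC core.

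The other protein genes lay under the filter on low values, which asks for 1 TPM in 2 libraries or more, and have no test here. Opn1sw (chr6:29376671-29380513, minus strand), the short-wavelength opsin of cones, stood at 0.261 and 0.272 TPM in the controls, at 0.0234 TPM in Isl1cKO replicate 1 and was listed at 0 in Isl1cKO replicate 2. Mean coverage was 1.37 and 1.34 reads per base in the controls and 0.125 and 0 in Isl1cKO, so few reads stand behind these values. The controls were level and the groups did not overlap. With no filter on low values, the adjusted p-value of Opn1sw was 0.310 in limma over 19784 genes.

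Pde6h (chr6:136954523-136963483, plus strand), the inhibitory subunit of the cone phosphodiesterase, stood at 0.292 TPM in control replicate 2 and was listed at 0 in the other 3 libraries. Rcvrn (chr11:67695326-67703355, plus strand), which encodes recoverin, stood at 0.145 TPM in control replicate 2 and was likewise listed at 0 in the other 3. Read numbers are not known, so a limit of detection could not be set and a listed 0 does not show absence.

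**Figure D2:**
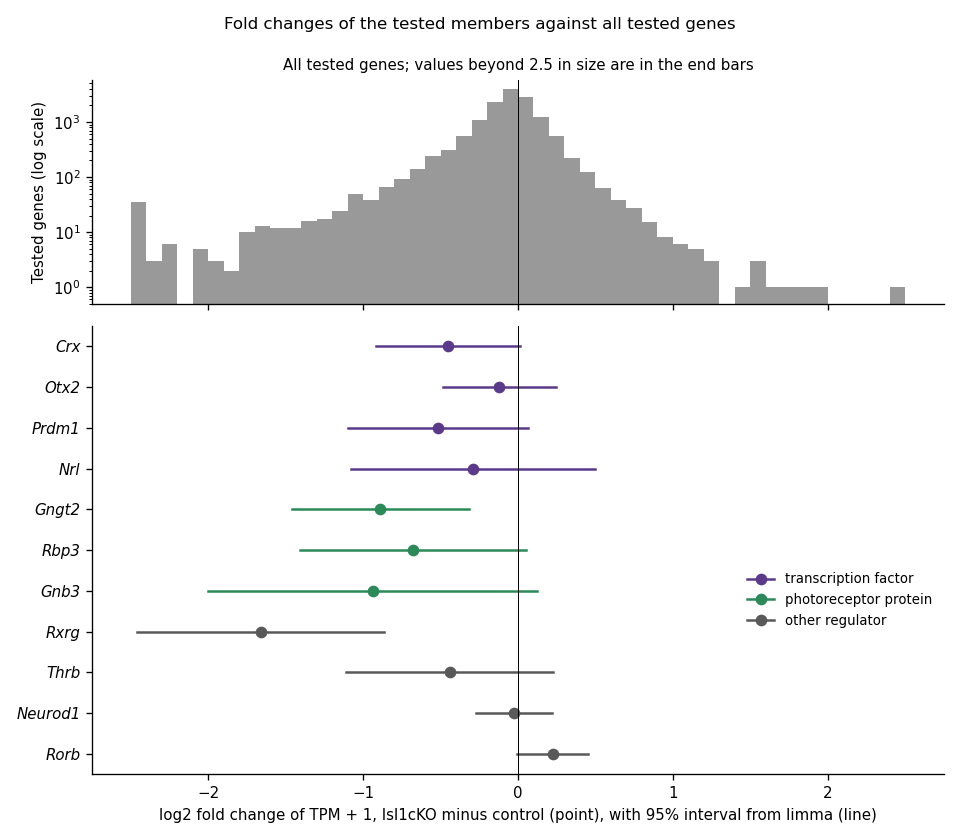
Top, number of tested genes (log scale) by log2 fold change; bottom, log2 fold change (points) and 95% interval from limma (lines) of the 7 tested members and 4 other regulators, Isl1cKO minus control. All 7 members lie to the left of 0, and of these only the interval of Gngt2 leaves 0 out.

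The median log2 fold change over all 4 factors was -0.37, over all 6 protein genes, untested ones included, -0.50, and over all tested genes -0.05. The scale understates the change of low genes, which lowers the size of the protein genes' median. Both Isl1cKO libraries lay below both controls in 2 of 4 factors and 4 of 6 protein genes, together 6 of 10, as they did in 26.6% of the 19784 genes with a value above 0 and in 30.0% of tested genes. No member lay above the controls in both Isl1cKO libraries. The members share the same 4 libraries, so their number does not add replicates. An exact permutation test of 2 libraries against 2 cannot give a two-sided p-value under 0.333, so none was run on single genes.

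The order of the single libraries was noticed after the values were seen. Control replicate 1 was the highest library for 7 of 10 members (33.5% of genes with a value above 0), and Isl1cKO replicate 2 was the lowest for 8 of 10 (39.4%). The full order control 1, control 2, Isl1cKO 1, Isl1cKO 2 held for Crx, Prdm1, Gngt2, Rbp3 and Gnb3, which is 5 of 10 members, against 12.1% of genes. Within each group replicate 2 was thus lower for all of these 5 genes. Over all tested genes, replicate 2 differed from replicate 1 by a median of only -0.02 in control and -0.05 in Isl1cKO on the log2 scale. Leaving out Isl1cKO replicate 2 brought the median of the factors to -0.10, and leaving out Isl1cKO replicate 1 brought it to -0.66.

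Ratios within a library do not depend on the scaling between libraries, and were computed after the values were seen. Gngt2 stood at 27.6% and 26.0% of the Crx level (TPM) in the controls and at 19.8% and 17.3% in Isl1cKO, so the groups stayed apart. Rbp3 stood at 12.3% and 9.59% of Crx in the controls and at 9.44% and 7.07% in Isl1cKO, a narrow separation. Gnb3 stood at 22.9% and 14.2% of Crx in the controls and at 14.3% and 9.22% in Isl1cKO, and its groups overlapped. Among the factors, Prdm1 was 69.6% and 68.6% of Crx in the controls and 69.7% and 62.1% in Isl1cKO, with overlap. Crx itself was 37.1% and 34.3% of Otx2 in the controls and 29.1% and 27.1% in Isl1cKO, without overlap. The summed TPM of the 6 protein genes was 14.3% and 11.1% of that of the 4 factors in the controls and 8.43% and 6.32% in Isl1cKO. Most of the factor sum was Otx2 (132 of 217 TPM in control replicate 1), the factor whose level differed least. The protein sum was nearly all Gngt2, Gnb3 and Rbp3. All these ratios are descriptions with 2 libraries per group and no test.

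**Figure D3:**
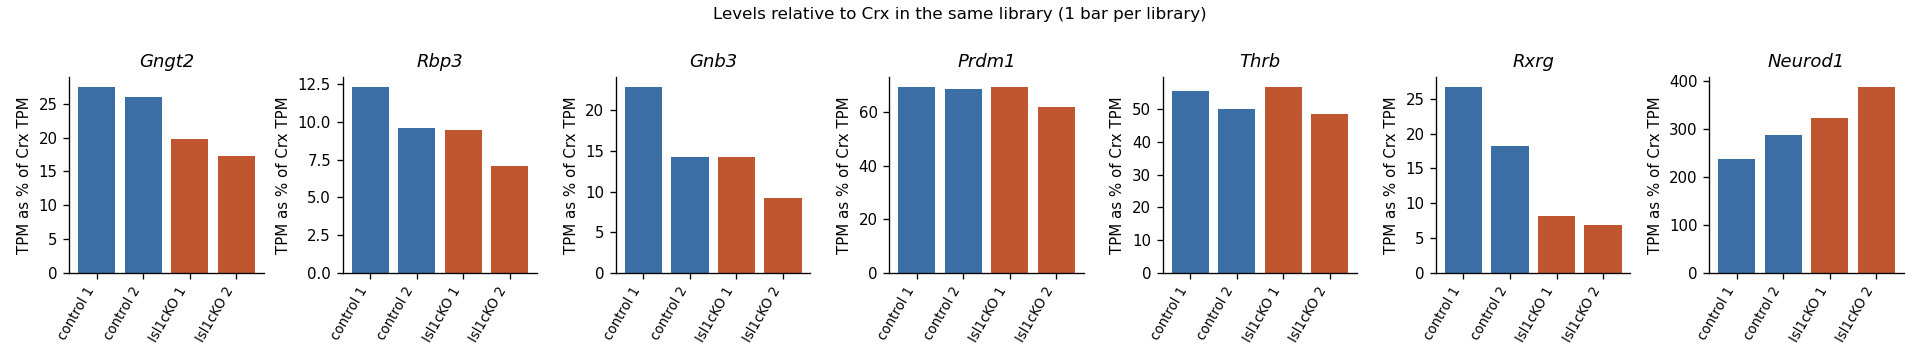
TPM as a percentage of the Crx TPM of the same library (y axes, from 0) for Gngt2, Rbp3, Gnb3, Prdm1, Thrb, Rxrg and Neurod1, 1 bar per library (blue control, orange Isl1cKO). Gngt2, Rbp3 and Rxrg are lower in both Isl1cKO libraries than in both controls, Neurod1 is higher, and Gnb3, Prdm1 and Thrb overlap.

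Of 12 other regulators of photoreceptor genes, 8 were tested and 0 passed in limma. There was 1 lower gene under an unadjusted p-value of 0.05 in limma, where 8.92% of tested genes were lower. That gene was Rxrg, the gene of retinoid X receptor gamma, which stood at 13.1 and 7.56 TPM in control and 3.10 and 1.95 TPM in Isl1cKO. Which retinal cells the Rxrg RNA came from was not tested. The groups did not overlap, and its log2 fold change was -1.66 (SE 0.30, 95% interval -2.46 to -0.86), and limma gave it an adjusted p-value of 0.169. Thrb, the thyroid hormone receptor beta of cones, named here after its values were seen, stood at 27.2 and 20.8 TPM in control and 21.6 and 13.8 TPM in Isl1cKO, with overlap. Relative to Crx, Thrb was 55.5% and 49.9% in the controls and 56.9% and 48.7% in Isl1cKO, with overlap. Rxrg was 26.8% and 18.2% of Crx in the controls and 8.19% and 6.89% in Isl1cKO, without overlap. Neurod1 was 238% and 287% of Crx in the controls and 323% and 388% in Isl1cKO, also without overlap and in the other direction.

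Neurod1 and Pias3 were nearly level between the groups. Neurod1, a bHLH factor of photoreceptors and amacrine cells, stood at 117 and 120 TPM in control and 122 and 110 TPM in Isl1cKO, and Pias3, a SUMO ligase of rod specification, stood at 28.4 to 31.0 TPM in the 4 libraries. Rorb, a nuclear receptor upstream of Nrl, stood at 123 and 115 TPM in control and 136 and 143 TPM in Isl1cKO, above both controls (log2 fold change 0.22, adjusted p-value 0.424 in limma). Prdm13, a factor of amacrine cells, stood at 28.8 and 19.9 TPM in control and 19.3 and 13.6 TPM in Isl1cKO. The regulators thus did not share a direction, and the median log2 fold change over all 12 was -0.02.

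Other cone phototransduction genes were low at this age. Of 12, 5 were tested and 0 passed in limma, with 0 under an unadjusted p-value of 0.05 in either direction. All 5 had a negative log2 fold change, as 63.8% of tested genes did. Rgs9, which speeds transducin shutoff, stood at 12.7 and 9.62 TPM in control and 9.22 and 6.99 TPM in Isl1cKO, without overlap. Gnat2, the alpha subunit that pairs with Gnb3 and Gngt2 in cone transducin, stood at 3.27 and 2.08 TPM in control and 2.64 and 1.15 TPM in Isl1cKO, with overlap. Pde6c, the catalytic subunit that Pde6h inhibits, stood at 3.30 and 1.58 TPM against 2.16 and 0.986 TPM, and the channel subunit Cngb3 at 3.25 and 1.65 TPM against 1.88 and 0.692 TPM, both with overlap. In both genes, as in Gnat2, replicate 2 was the lower library of each group.

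Rod phototransduction genes were mostly under the filter. Of 12, only Gnb1 and Guca1b passed the filter, and 0 were called in limma or lay under an unadjusted p-value of 0.05. Gnb1, a transducin beta subunit used in many cell types, stood at 448 and 419 TPM in control and 383 and 418 TPM in Isl1cKO, far above its cone paralog Gnb3 on this length-scaled measure. Guca1b, a guanylate cyclase activator, stood at 4.10 and 5.07 TPM in control and 5.20 and 5.80 TPM in Isl1cKO. Sag, the rod arrestin, stood at 0.893 and 1.13 TPM in control and 0.858 and 0.812 TPM in Isl1cKO, without overlap. Both Isl1cKO libraries lay below both controls in 4 of the 12 rod genes, Gnb1 and Sag among them, and above both in 2. Among the 19784 genes with a value above 0, 26.6% lay below both controls. The order of libraries seen for Crx held in 0 of the 12.

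Of 15 outer segment and visual cycle genes, 7 were tested and 0 passed in limma, with 2 lower ones, Impg2 and Tulp1, under an unadjusted p-value of 0.05. Among all tested genes, 8.92% were lower at that level. Cdhr1, a cadherin of the outer segment base, stood at 15.0 and 10.5 TPM in control and 9.32 and 4.93 TPM in Isl1cKO (log2 fold change -0.80, adjusted p-value 0.442). Impg2, a proteoglycan of the interphotoreceptor matrix, stood at 3.55 and 3.07 TPM in control and 2.16 and 1.28 TPM in Isl1cKO (-0.68, adjusted p-value 0.296). Tulp1, a transport protein of photoreceptors chosen for naming after its values were seen, stood at 7.02 and 6.38 TPM against 4.82 and 5.05 TPM (-0.38, adjusted p-value 0.255). In these 3 genes the groups did not overlap. Both Isl1cKO libraries lay below both controls in 4 of the 15 genes, against 26.6% of the 19784 genes with a value above 0. Rom1 stood at 7.98 and 9.47 TPM against 7.22 and 8.37 TPM. Rdh12 stood at 1.81 and 2.70 TPM against 1.58 and 2.85 TPM. Both were tested, and in both the groups overlapped. The more widely used genes Prom1 (70.4 to 76.9 TPM) and Unc119 (71.7 to 74.9 TPM) were level across the 4 libraries.

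**Figure D4:**
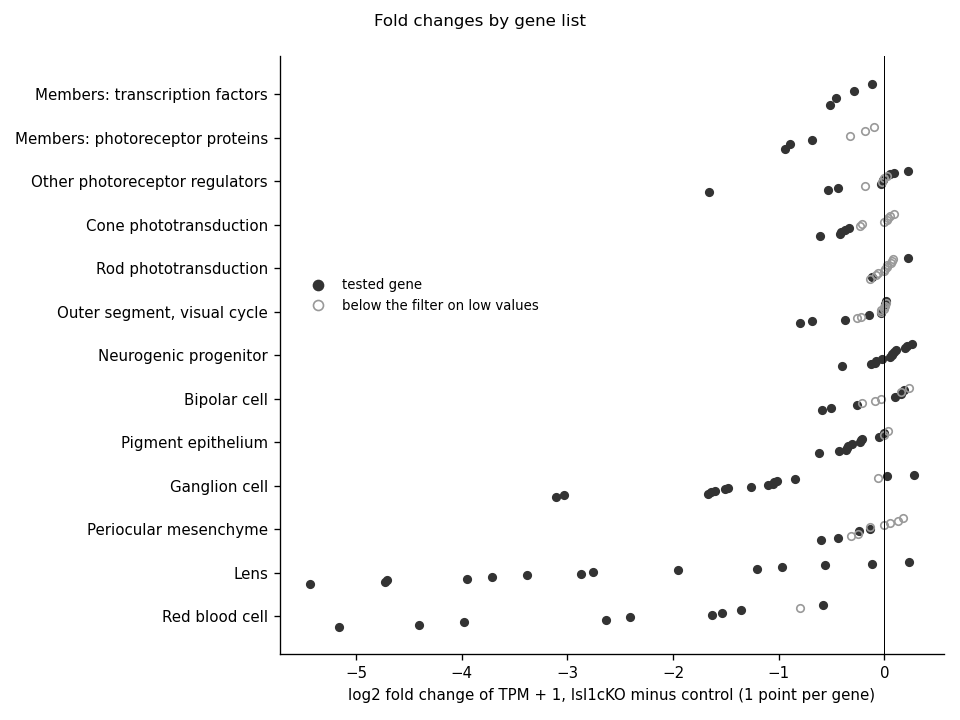
Log2 fold change of TPM + 1 (x axis, Isl1cKO minus control) of each gene of 13 lists, 1 point per gene, filled where tested and open where under the filter on low values. The photoreceptor lists lie between -1.66 (Rxrg) and 0.22 (Rorb), a narrower range than the ganglion cell, lens and red blood cell lists.

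Marker sums of other cell types also differed between the libraries. The summed TPM of 13 pigment epithelium genes was 56.6 and 46.1 in the controls and 45.7 and 32.9 in Isl1cKO. Of these, 10 of the 11 tested had a negative log2 fold change, as 63.8% of all tested genes did. In limma 0 passed, with 2 lower ones under an unadjusted p-value of 0.05 (Mlana and Ttr), where 8.92% of tested genes were lower. Rpe65 was at 0 in all 4 libraries, while Dct stood at 4.71 to 6.46 TPM and Mitf at 3.84 to 4.55 TPM. Pmel, a melanosome protein, stood at 19.4% and 16.8% of Otx2 in the controls and at 16.2% and 12.7% in Isl1cKO. The summed TPM of 16 ganglion cell genes, Isl1 among them, was 3983 and 3386 in the controls and 2185 and 1505 in Isl1cKO. Much of this sum was Gap43, Nefm and Stmn2 (877, 778 and 612 TPM in control replicate 1). Of the 15 tested genes of the list, 13 had a negative log2 fold change, and Isl1 was not among these 13. In limma 3 passed, all lower (Irx2, Irx3 and Nell2). The list thus did not move as 1. The sum of 10 red blood cell genes ranged from 2904 to 4170 in the controls and was 1419 and 205 in Isl1cKO, and that of 14 lens genes was 248 to 302 against 11.7 to 16.3, with 9 passing, all lower. The sum of 11 periocular mesenchyme genes was 20.7 to 27.8 against 16.1 to 19.6. The sum of 13 neurogenic progenitor genes was 2926 and 3162 against 3065 and 3453. The part of these differences in the members' values was not tested.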

How the data were processed

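Retinal RNA from E13.5 mice was sequenced in 2 control and 2 Isl1cKO libraries, grouped by their titles. Per the labels' protocols, poly(A) RNA was selected and the libraries keep the strand. The submitters' processing notes name mm10, Trimmomatic, FastQC, HISAT2, SAMtools, StringTie and DESeq2 without versions, roles or order. The annotation and the use of strand in counting are not given in the sources used here.

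The deposited tables hold, per the file headers, coverage (a signal, mean reads per base, not scaled to depth), FPKM and TPM per gene and library. TPM summed to 1000000 in each. Since none of these is a count, count tests do not apply. Depth in reads is unknown, and the gigabases come from the median ratio of coverage to FPKM.

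TPM were summed over rows of a gene. The 13984 genes with at least 1 TPM in at least 2 libraries were fitted on genotype alone, as log2(TPM + 1), using limma 3.58.1 (R 4.3.3; lmFit, eBayes, constant prior). Benjamini-Hochberg adjustment ran over all tested genes, and 0.05 was the threshold. Every adjusted p-value comes from this fit unless a setting is named. On simulated data of 13984 genes for this comparison, 61.0% of genes changed by 1 and 93.0% of those changed by 3 on the log2 scale were called. The changed genes were drawn at random from all tested genes. Log2 fold changes of the tested members, from -0.94 (Gnb3) to -0.12 (Otx2), were smaller in size and were not simulated. These shares therefore do not tell how often such members would be called.

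Named were Isl1, all members and, of each other list, called genes (at most 5), the 3 with the highest mean TPM and the 2 tested genes with the largest change. Lists of other cell types were given by sums, and 2 genes and a list sum that rests on 1 of them are not reported here. Members, lists and tests were chosen with earlier results of these data known. Alternatives covered the pseudocount, filter, unit, scaling, variance prior, replicate block, genes on several rows and each left-out replicate.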

Additional observations from a re-analysis of the deposited data

How the results depend on the processing

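No member passed under 8 of 9 other settings or without any 1 replicate. The labels pair no samples, and the deviations of the 2 libraries numbered 1 correlated at 0.126 across genes. Whether libraries with the same number share a batch was not tested, and this correlation cannot decide it. With the replicate block 2 members passed in limma, Gngt2 (adjusted p-value 0.0383) and Gnb3 (0.0236), as did Rxrg (0.00802), while Rbp3 had 0.0569. Without the block the lowest adjusted p-value of Gngt2 over its settings with 4 libraries was 0.166, with FPKM.

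The count of 69 genes over all tested was 44 at a pseudocount of 0.1, 15 with no filter beyond a value above 0 (more genes tested), 127 with FPKM, 110 with a mean-variance trend and 265 with the replicate block. Leaving out each replicate in turn, with the lone library assumed to vary like the other group, gave 10 to 37 genes and 0 members.

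The median log2 fold change of the photoreceptor protein genes, -0.50, became -0.98 when 0.1 was added in place of 1, and -0.30 with FPKM. The value added sets how the scale handles low values. With FPKM the median over the genes tested was also different, 0.0015 against -0.048. How much of the FPKM value comes from low values was not tested. The protein genes' median ranged from -0.66 to -0.34 with 1 replicate left out. The median of the factors, -0.37, ranged from -0.66 to -0.10 and rests most on Isl1cKO replicate 2, without which Otx2 (0.0392) and Nrl (0.0732) changed sign, while without Isl1cKO replicate 1 they were at -0.279 and -0.653. Nrl could not be tested with FPKM or at 5 TPM, nor Rbp3 at 5 TPM. Other causes were not tested. Depth in reads is unknown, so values under 1 TPM carry no interval.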
